A study of Mus musculus with 3 samples.

Results

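The genes described here are the 4 cerebellins, Cbln1 to Cbln4, and 3 of their C1q-like relatives, C1ql1 to C1ql3, 7 of the 19848 named genes that the arrays measured. They were found by their gene symbol in the platform annotation, or by an older clone symbol that is now theirs (BC040774 for C1ql2 and 1110065A22Rik for 1 probe of C1ql3). This gave 10 probes, and all 7 genes had a value on every array. The family was selected on the log ratios of cKO over wild type of this same comparison, so their own values are given as a description and carry no test.

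RNA came from the dissected cerebellum at postnatal day 10 of Smarca5 conditional knockout (cKO) mice and of wild-type mice, both of the C57Bl/6 strain. Smarca5, also called Snf2h, encodes a nucleosome-sliding ATPase of the ISWI family. The 3 arrays had 2 colours and paired 1 cKO sample with 1 from wild type, and the dyes were exchanged on replicate 3. Not given in the sources used here are the Cre line, the deleted part of the gene and whether samples were single animals or pools, so the spread between arrays may be technical. Values are log ratios of cKO over wild type, centred on 0 for each array, so a positive value is a higher level in the cKO relative to the average probe. The direction is likely rather than certain: it rests on the channel labels and on Smarca5 itself having a negative value, -0.86 ± 0.11 (SD, n = 3). Were it the other way, every sign would turn, and Cbln3 and Cbln1, lower here, would be 2.80-fold and 1.31-fold higher. The log base is not stated and was taken as 2, and folds hold only for that base. A ratio gives no level, so it could not be checked here how strongly any of these genes, or the markers of cerebellar cells, were expressed.

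Cerebellins and C1q-like proteins are small secreted proteins with a C1q domain that bridge the 2 sides of a synapse. In the cerebellar cortex Cbln1 is released from granule cell axons, the parallel fibres, and ties presynaptic neurexins to postsynaptic receptors on Purkinje cells. Cbln3 is made by the same granule cells and needs Cbln1 to leave the cell, with which it forms mixed complexes. C1ql1 is the corresponding organizer of the climbing fibre synapse, made by neurons of the inferior olive in the brainstem and received by the adhesion receptor Adgrb3 on Purkinje cells.

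A window before the RefSeq start site (GRCm38.p6) was available here for 4 of the 7 genes, and none was used for Cbln1, Cbln2 and C1ql1. It is shown for Cbln3, which had the lowest ratio, and for Cbln4 and C1ql2, which had the highest, as 250 bases up to the annotated start, 5′ to 3′ on the gene's strand. Capitals mark any match, on either strand, to the half-site of nuclear factor I, TTGGC. Capitals would also mark an E-box, the site of neurogenic bHLH factors, searched as CAGCTG and in a second form as CAGATG.
Cbln3 (chr14:55884257-55884506, minus strand): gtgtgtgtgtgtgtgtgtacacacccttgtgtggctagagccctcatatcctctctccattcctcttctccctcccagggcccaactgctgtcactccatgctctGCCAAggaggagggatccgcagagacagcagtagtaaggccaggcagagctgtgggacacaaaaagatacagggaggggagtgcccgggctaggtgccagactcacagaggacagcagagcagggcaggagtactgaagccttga
Cbln4 (chr2:172043467-172043716, minus strand): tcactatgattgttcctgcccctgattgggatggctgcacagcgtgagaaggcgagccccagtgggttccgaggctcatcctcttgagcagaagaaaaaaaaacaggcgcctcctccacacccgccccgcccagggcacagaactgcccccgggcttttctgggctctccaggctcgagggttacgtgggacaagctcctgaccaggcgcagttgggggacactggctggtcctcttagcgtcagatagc
C1ql2 (chr1:120340332-120340581, plus strand): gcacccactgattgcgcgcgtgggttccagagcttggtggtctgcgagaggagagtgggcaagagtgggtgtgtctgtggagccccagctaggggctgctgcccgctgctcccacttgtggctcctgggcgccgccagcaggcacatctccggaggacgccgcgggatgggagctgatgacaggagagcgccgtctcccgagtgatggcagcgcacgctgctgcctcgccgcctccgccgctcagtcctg

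The window of Cbln3 held 2 CpG dinucleotides and 57.6% G and C, against 11 CpG and 60.8% for Cbln4 and 20 CpG and 68.8% for C1ql2. C1ql3, whose window is not printed, had 23 CpG and 66.4%. The median over 32851 windows of this length was 6 CpG and 52.4%, so Cbln3 lay below it in CpG and Cbln4, C1ql2 and C1ql3 above it. A TTGGC match lay at bases 145 to 141 before the start of Cbln3, as GCCAA, and at bases 227 to 223 before that of C1ql3. Of all windows, 41.5% held TTGGC. The E-box form CAGCTG was in 13.0% of windows and the form CAGATG in 14.4%. Neither form was found in the 4 windows, which says only that these letters are not in them.

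The family split into 2 lower and 5 higher genes. Cbln1 and Cbln3, the granule cell cerebellins, were below 0 on all 3 arrays, as were 21.4% of all features. Cbln2, Cbln4, C1ql1, C1ql2 and C1ql3 were above 0 on all 3 arrays, as were 22.1% of all features. Cbln2, Cbln4, C1ql1 and C1ql2 were at least 1 above 0 on every array, which held for 0.72% of features, and Cbln3 was at least 1 below 0 on every array, which held for 0.653%. The choice of the genes used these ratios, so nothing is read from those shares.

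Cbln3 had the lowest ratio of the 7, with -1.83, -1.42 and -1.20 on replicates 1, 2 and 3. The mean of -1.48 ± 0.32 (SD, n = 3) is 35.8% of the wild-type level, and 88 named genes had a lower mean. All 3 of its probes were below 0 on every array, with means of -1.66 ± 0.28, -1.68 ± 0.31 and -1.11 ± 0.43. They spanned 0.573 between their means, and the median span over the 1530 genes with 3 probes was 0.407. The dye-flipped replicate 3 was the closest to 0 for the gene average, at 0.425 above the mean of the other arrays.

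Cbln1 was lower by much less, with -0.44, -0.29 and -0.43 on replicates 1, 2 and 3. Its mean of -0.39 ± 0.08 (SD, n = 3) is 76.5% of the wild-type level and comes from 1 probe. The 3 arrays lay close together, and 9.6% of all features had a smaller SD. Cbln1 exceeded Cbln3 by 1.39, 1.13 and 0.77 on replicates 1, 2 and 3, a mean difference between their log ratios of 1.10 ± 0.31. By these averages the ratio of Cbln1 was 2.14 times that of Cbln3, with 1 probe set against the average of 3. Probe 3 of Cbln3 alone, at -1.11 ± 0.43, lay nearer to Cbln1. Ratios of different probes may differ in scale, and without intensities this could not be checked.

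Cbln4 had the highest ratio. It belongs to the cerebellins found mainly in other brain regions, and its protein binds neurexins and the netrin receptor Dcc. The values were 2.05, 2.10 and 1.81, averaging 1.99 ± 0.16 (SD, n = 3), or 3.96-fold higher in the cKO. Of the named genes, 16 had a higher mean. The difference between Cbln4 and Cbln1 was similar on each array, at 2.49, 2.39 and 2.24.

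Cbln2, which like Cbln1 binds neurexins and delta receptors, was the most variable of the 7 genes. Its single probe had 1.35, 2.44 and 1.19, with a mean of 1.66 ± 0.68 (SD, n = 3), or 3.16-fold higher. Replicate 2 stood above the others, and 84.5% of all features had a smaller SD. Without replicate 2 the mean was 1.27.

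C1ql2, a presynaptic organizer best known from hippocampal mossy fibres, had 2.03, 1.84 and 1.82. Its mean of 1.90 ± 0.12 (SD, n = 3) is 3.72-fold higher, and it comes from the 1 probe with the older clone symbol. The 3 arrays lay within 0.21 of each other, and 25 named genes had a higher mean. Its difference from Cbln4 was 0.09 ± 0.15, smaller than its spread over the arrays.

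C1ql1, the climbing fibre organizer, had 1.25, 1.30 and 1.79, with a mean of 1.45 ± 0.30 (SD, n = 3), or 2.73-fold higher. The dye-flipped array gave its highest value, 0.515 above the mean of the other arrays, and in Cbln2 it gave the lowest.

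C1ql3, which acts with C1ql2 at hippocampal mossy fibre synapses, had the smallest of the positive ratios. With its 2 probes averaged, it had 0.66, 0.525 and 0.625 on replicates 1, 2 and 3. The mean of 0.60 ± 0.07 (SD, n = 3) is 1.52-fold higher, but the average covers a disagreement of the probes. The probe annotated as C1ql3 had 0.58, 1.13 and 0.94 (0.88 ± 0.28), and the one with the clone symbol had 0.74, -0.08 and 0.31 (0.32 ± 0.41). Their order was opposite on replicate 1 and on replicates 2 and 3, and the second changed sign. Their means differed by 0.56, more than in 81.6% of the 4475 genes with 2 probes.

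**Figure D1:**
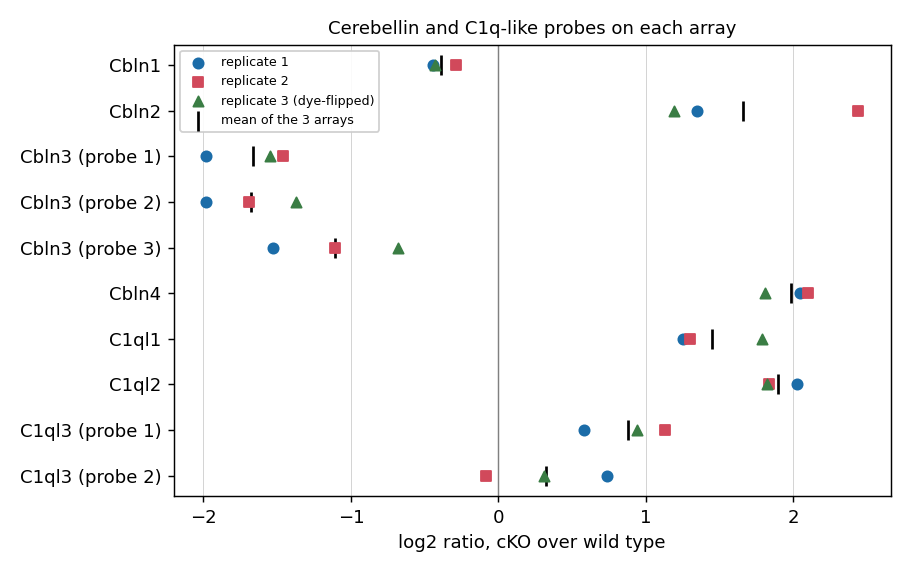
Log2 ratios of cKO over wild type (x axis) for the 10 probes of the 7 genes (rows), with 1 marker per array and a black tick for the mean of the 3 arrays. The Cbln1 and Cbln3 probes lie left of 0 on every array, and the other probes lie right of it apart from probe 2 of C1ql3 on replicate 2, at -0.08.

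By mean ratio the order was Cbln4, C1ql2, Cbln2, C1ql1, C1ql3, Cbln1 and Cbln3. Among the first 4 the neighbours did not differ beyond their spread, since each adjacent pair kept its order on 2 of 3 arrays. C1ql1 exceeded C1ql3 by 0.84 ± 0.29, C1ql3 exceeded Cbln1 by 0.99 ± 0.15, and each of these lower steps, that from Cbln1 to Cbln3 included, had 1 direction on all 3 arrays. C1ql2 and C1ql3 differed by 1.29 ± 0.09, the steadiest of the pairs compared, with the 2 C1ql3 probes averaged.

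**Figure D2:**
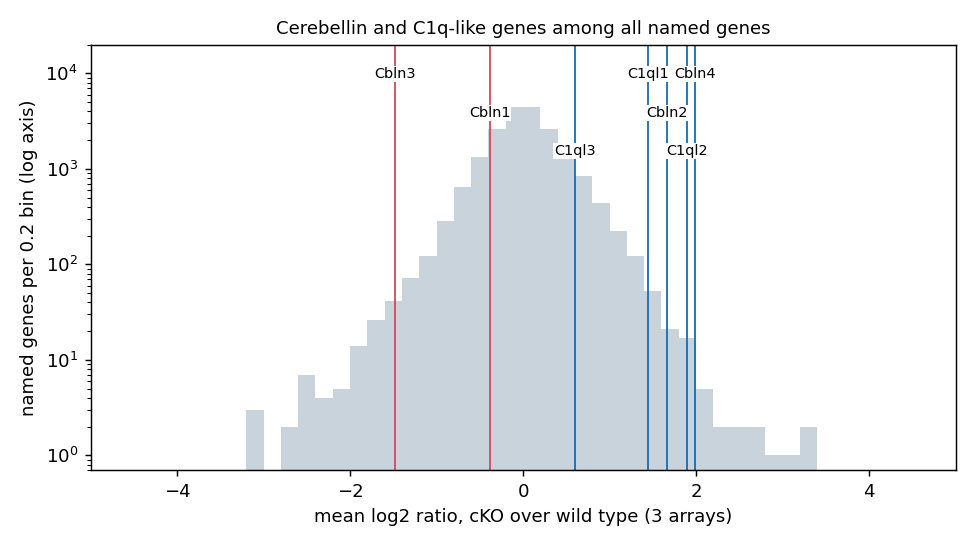
Distribution of the mean log2 ratio of cKO over wild type (x axis) over the named genes, as genes per bin on a log axis (y axis), with a vertical line for each of the 7 genes, red below 0 and blue above it. Cbln1 at -0.39 and C1ql3 at 0.60 lie on the shoulders of the distribution, and Cbln3 at -1.48 and the other 4 genes lie in its tails.

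The genes with ratios nearest to each of these profiles were looked up among the other named genes, by Euclidean distance over the 3 arrays. Cbln4 lay nearest to Gabra5, a GABA-A receptor subunit, at a distance of 0.073, then to Agpat5 at 0.168 and Myl1 at 0.251. C1ql2 lay nearest to Gng4, a G protein gamma subunit, at 0.24, then to Ssxb1 at 0.292, followed by Gabra5 at 0.306. Cbln3 had Kcnk3, a leak potassium channel, at 0.181, En2, a homeobox gene of the developing cerebellum, at 0.212, and Dnase2a at 0.219. C1ql1 lay nearest to Ifit2, an interferon-induced gene, at 0.044, followed by Serpina3g at 0.132 and Olfml3 at 0.177. For Cbln2 the nearest were Hsf4 at 0.287, Egfem1 at 0.347 and Zfhx3 at 0.348, all highest on replicate 2. With 3 arrays, such distances describe a similar size and spread of ratios and no more.

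The receptors of these proteins were listed by function. Like the other comparison lists, they were chosen with earlier results of these data known, so their counts are not independent support. They were tested against 0 with limma's moderated statistic over all features. None of 28187 features passed the adjusted p of 0.05 (Benjamini-Hochberg, 0.0%), and 5891 had an unadjusted p under 0.05 (10.9% of features higher and 9.98% lower in the cKO). The smallest adjusted p was 0.084. Of the receptors and partners of cerebellins, 5 were measured and 0 passed, with 1 higher and 1 lower at the unadjusted p. Their median log ratio was 0.15, against 0.003 for all features.

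Grid1, encoding the delta receptor GluD1, had 0.60, 0.20 and 0.48 on replicates 1, 2 and 3, with a mean of 0.43 ± 0.21 (limma's unadjusted p = 0.038, adjusted p = 0.214). Nrxn2, a neurexin, was below 0 on all arrays, with -0.365, -0.515 and -0.92 and a mean of -0.60 ± 0.29 (limma's unadjusted p = 0.0203, adjusted p = 0.164). Neither passed the threshold, and each kept 1 sign on the 3 arrays. Nrxn3 averaged -0.19 ± 0.27, but its 3 probes disagreed in sign, at -0.70 ± 0.31, -0.58 ± 0.16 and 0.70 ± 0.38, each with 1 sign on every array. Dcc had 0.99 and 0.80 on replicates 1 and 2 and -0.135 on the dye-flipped replicate 3. Its probe with a clone symbol averaged 1.10 ± 0.51 and the probe annotated as Dcc averaged 0.00 ± 0.71. Neo1, the relative of Dcc, had 0.15 ± 0.26, with values of both signs. Its probes averaged 0.21 ± 0.09, 0.02 ± 0.99 and 0.23 ± 1.17.

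The receptors and partners of C1q-like proteins were all 5 measured, and 0 passed the adjusted threshold. At limma's unadjusted p of 0.05, 2 were higher and 2 lower, against 10.9% and 9.98% of all features. Their median was -0.19. Adgrb3, the C1ql1 receptor on Purkinje cells, had -0.22, -0.25 and -0.105, a mean of -0.19 ± 0.08 (limma's adjusted p = 0.442). C1ql1 had a mean ratio of 1.45 in the same cerebellar RNA. The neurons that send climbing fibres lie in the brainstem, and which cells held the C1ql1 RNA measured here was not tested. These ratios therefore cannot be read as ligand and receptor of 1 synapse. The related receptors went either way, with Adgrb1 at 0.44 ± 0.14 (adjusted p = 0.18 with limma) and Adgrb2 at -0.37 ± 0.07 (adjusted p = 0.203 with limma). The Adgrb2 probes averaged -0.56 ± 0.095, -0.43 ± 0.20 and -0.11 ± 0.32, the last with values of both signs.

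Kainate receptors, which C1ql2 and C1ql3 recruit at hippocampal mossy fibre synapses, also had ratios of both signs. Grik4 had 0.55, 0.75 and 0.53, with a mean of 0.61 ± 0.12 (limma's adjusted p = 0.117), and lay above 0 on all arrays. Grik2 had -1.09, -0.73 and -0.27, with a mean of -0.70 ± 0.41 (limma's adjusted p = 0.179). All 3 arrays were below 0 for the Grik2 average, but 1 of its 3 probes was above 0 on the dye-flipped array, at 0.71.

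**Figure D3:**
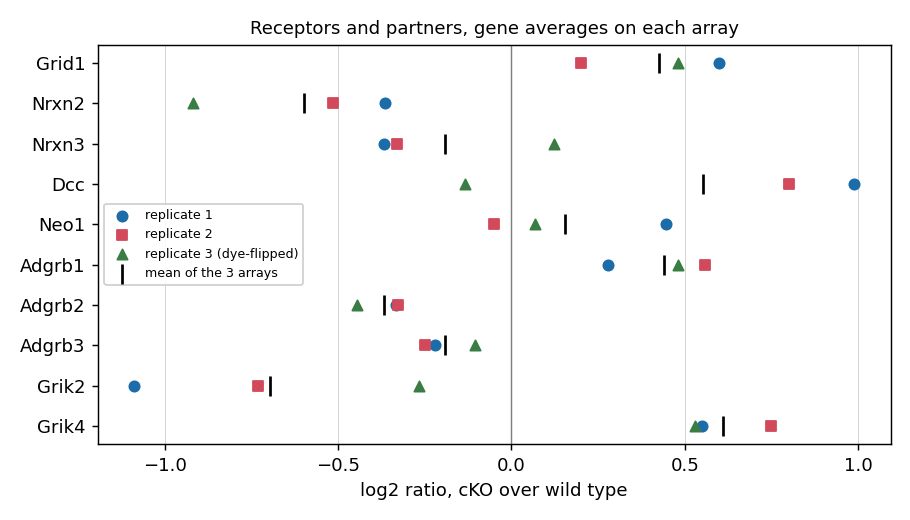
Log2 ratios of cKO over wild type (x axis) for the 10 measured receptors and partners (rows), averaged over each gene's probes, with 1 marker per array and a black tick for the mean. The means run from -0.70 (Grik2) to 0.61 (Grik4), and Nrxn3, Dcc and Neo1 have arrays on both sides of 0.

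Other genes with a C1q domain were compared to see whether the ratios followed the domain. Of 23 listed genes, 21 were measured and 0 passed, with a median of 0.13. At the unadjusted p of 0.05, 5 were higher and 2 lower, against 10.9% and 9.98% of all features. C1qc, a chain of the complement protein C1q made by microglia, had 1.00 ± 0.22 (adjusted p = 0.0896 with limma). C1qa and C1qb, the other chains of that protein, were also among the 5 higher genes, at 0.93 ± 0.24 and 0.81 ± 0.24. C1qtnf12, a secreted metabolic hormone gene, had -0.93 ± 0.12 (adjusted p = 0.084 with limma). The range of the 21 measured genes, from -0.93 to 1.00, was narrower than that of the 7 genes, from -1.48 to 1.99, which were chosen with those values known.

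Synaptic organizers of other families were likewise spread on both sides of 0. Among 35 measured adhesion organizers the median was 0.03 and 0 passed. At the unadjusted p 10 were higher and 4 lower, against 10.9% and 9.98% of all features. Lrrtm1, a postsynaptic neurexin ligand, had 1.05, 1.38 and 1.03, a mean of 1.15 ± 0.20 (adjusted p = 0.084 with limma). Slitrk5, which binds presynaptic receptor phosphatases, had 1.00 ± 0.11 (adjusted p = 0.084 with limma). Both were named for the smallest p of the list, whose means ran from -1.57 (Cadm3) to 1.15 (Lrrtm1). Among 20 secreted or matrix-linked organizers and their partners, 4 were higher and 5 lower at the unadjusted p and 0 passed, with a median of 0.005. Wnt7a, which granule cells release to shape mossy fibre endings, had -2.18, -1.51 and -1.30, a mean of -1.66 ± 0.46 (adjusted p = 0.084 with limma), below that of Cbln3. Nptx2, a secreted pentraxin that gathers AMPA receptors, had 1.04 ± 0.32 (adjusted p = 0.0978 with limma).

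Markers of the cell types that make or receive these proteins are given for the same arrays, in lists chosen with earlier results known. For the counts in these and the later marker lists, 22.1% of all features were above 0 and 21.4% below 0 on all 3 arrays. At the unadjusted p, 10.9% of all features were higher and 9.98% lower. Granule neuron markers had a median of -1.17 over 18 measured genes of 20, with array medians from -1.44 to -0.91, and 16 of 18 were below 0 on all arrays. All 16 had an unadjusted p under 0.05 and 0 passed the adjusted threshold. Etv1 had -1.96 ± 0.18 and Gabrd -2.50 ± 0.36 (adjusted p = 0.084 with limma for each). Cbln3 lay within these markers, 6 of which had a lower mean. Cbln1 lay near their upper end, since 17 of 18 had a lower mean. In whole cerebellum, fewer granule cells and less RNA per cell cannot be told apart.

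The Purkinje cells that receive both kinds of synapse had markers with a median of -0.02 over 14 measured genes. At the unadjusted p 1 was higher and 1 lower, against 10.9% and 9.98% of all features. The higher gene was Foxp2 at 0.57 ± 0.20 and the lower was Lhx5 at -0.46 ± 0.16. Cerebellar interneuron markers had a median of 0.00 over 10 genes, with Gad2 at 0.90 ± 0.14 and Tfap2a at -0.74 ± 0.14.

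Markers of tissue next to the cerebellum and of glia were set beside the 5 higher genes. Brainstem and midbrain neuron markers had a median of 1.00 over 16 measured genes of 18, with array medians from 0.74 to 1.21. Of these, 9 were above 0 and 1 was below 0 on all arrays, 8 higher and 1 lower had an unadjusted p under 0.05, and 0 passed. A mean above that of Cbln4 was held by 5 of the 16 markers, and 8 of 16 had a mean above that of C1ql3. Nr4a2, a transcription factor of dopamine neurons and the 1 marker below 0 on all arrays, had -1.07 ± 0.22. Slc18a2, the vesicular monoamine transporter, had 3.10, 4.02 and 2.61, and Ddc, an enzyme of monoamine synthesis, had 1.75, 1.99 and 1.76. Replicate 2 was the highest array for Slc18a2 as it was for Cbln2. The genes of serotonin neurons Slc6a4 (2.90, 4.32 and 1.97) and Tph2 (2.69, 4.07 and 1.63) ordered the arrays as Cbln2 did. The genes of dopamine neurons Slc6a3 (4.55, 1.43 and 4.18) and Th (2.41, 1.09 and 2.23) were lowest on replicate 2, so the markers of the list did not share 1 order of arrays. These 4 genes and Nr4a2 were picked after their values were seen. Few orders are possible with 3 arrays, and the features sharing each order were not counted, so nothing is read from a shared order. Cbln4 had the same order of arrays over a range of 0.29, against 1.25 for Cbln2, and C1ql2 was highest on replicate 1. Hox genes among these markers, which are active in the hindbrain and spinal cord, had means from -0.35 (Hoxb2) to 0.19 (Hoxa3). The part of brainstem or midbrain tissue in the ratios of the 5 genes was not tested.

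Microglia markers had a median of 0.86 over 11 measured genes of 12, with array medians from 0.89 to 0.94, and all 11 were above 0 on all arrays. Fcer1g had 1.17 ± 0.11 and Aif1 1.23 ± 0.19. Oligodendrocyte lineage markers had a median of 0.12 over 11 genes, with array medians from 0.01 to 0.35, 5 higher at the unadjusted p and 0 lower. On all arrays 6 of the 11 were above 0 and 2 were below it, Cspg4 at -0.30 and Mog at -0.21, both named after their values were seen. Over all features, 22.1% were above 0 and 21.4% below 0 on all arrays. Opalin had 1.20 ± 0.17 and Enpp6 1.02 ± 0.15. Neither list had a member that passed the adjusted threshold, and their part in the ratios of Cbln2, Cbln4 and the C1q-like genes was not tested.

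**Figure D4:**
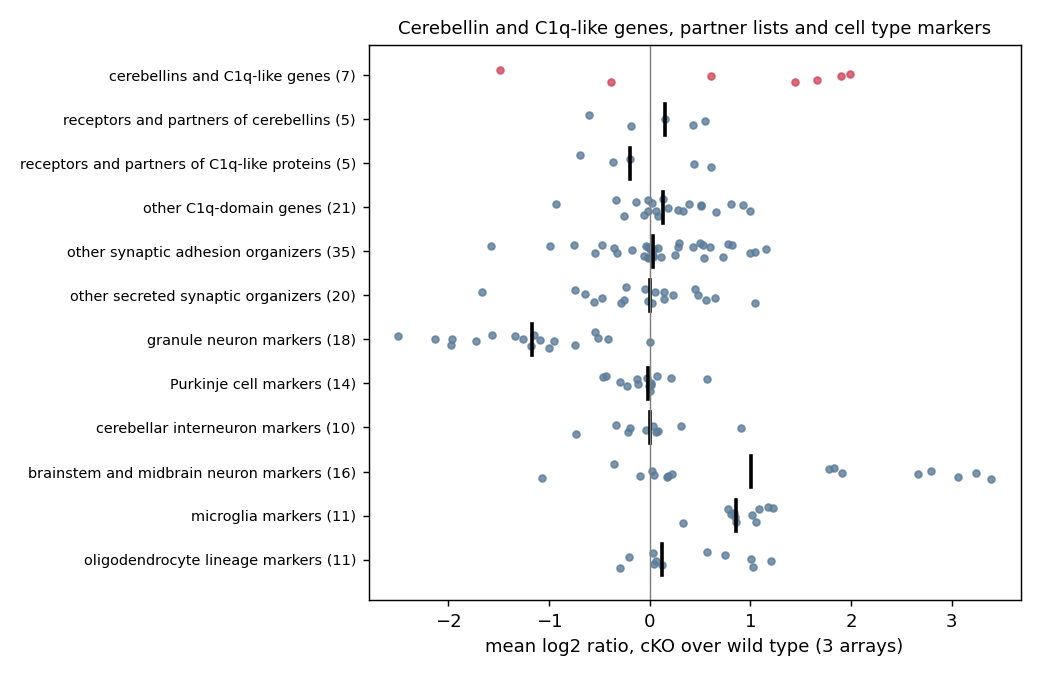
Mean log2 ratio of cKO over wild type (x axis) for each measured gene, with 1 point per gene, in the cerebellin and C1q-like family (red) and in 11 comparison lists (blue; number of measured genes in brackets). Black bars are list medians, which run from -1.17 for granule neuron markers to 1.00 for brainstem and midbrain neuron markers, and the vertical scatter within a row has no meaning.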

How the data were processed

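The deposited table holds 1 value per probe and array for 38880 probes. Per the labels, channel 1 held wild-type and channel 2 cKO RNA, labelled with a dendrimer kit after Trizol extraction. The values were used as deposited by the authors, as log2 ratios with mean and median 0 on each array. Not given in the sources used here are the scanner, background correction, normalization and log base. No intensities were used, so dim probes could not be set apart.

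A set of 49 unnamed spots over 5 in size on every array was left out. These turned sign on the dye-flipped array (mean 7.66 there, -7.81 and -7.86 on the others), so the arrays were read as running the same way, channel 2 over channel 1. Without these spots, replicates 1 and 2 had a Pearson's r of 0.44 across probes, replicates 1 and 3 of 0.274, and replicates 2 and 3 of 0.229. Probes are not independent replicates.

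Of the probes, 30457 had 1 symbol in the platform annotation, which is old. Symbols were updated through a RefSeq table (GRCm38.p6): 19043 matched a current symbol, 11249 a synonym of 1 gene, and 165 kept the array's. Probes of a gene were averaged, which left 19848 named genes and 8339 unnamed probes. The ratios were tested against 0 with limma (intercept, eBayes, Benjamini-Hochberg) over all 28187 features, a fit with 2 residual and 2.09 prior degrees of freedom that was tested on simulated data. Software was limma 3.58.1 in R 4.3.3, with matplotlib 3.10.9 and pandas 2.3.3 in Python 3.11.15.

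The family members and comparison lists were chosen with earlier results of these data known. Named were the 7 members, Smarca5, all measured receptors and partners, the 2 genes of smallest p in every other list, and the 3 nearest genes of each member with a mean of at least 1 in size. Genes beyond this rule are the serotonin, dopamine, Hox and myelin lineage genes singled out in the text, and C1qa, C1qb, Cadm3 and Cerk, chosen after their values were seen. Some listed genes are not reported here.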

Additional observations from a re-analysis of the deposited data

How the results depend on the processing

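No gene passed the adjusted p of 0.05 in limma's fit, nor with arrays scaled or centred anew, array symbols, single probes, the 49 spots kept in, a dye term or any 1 array left out. Without eBayes 2 features passed, Cerk and an unnamed probe, whose 3 values were identical at -0.06 and 0.10. The unadjusted p was under 0.05 for 5891 features, 4567 without eBayes, 5513 with a dye term and 3570 to 5049 with an array left out. For the 7 genes, 33 of 34 means under settings other than leaving out an array moved by less than 1 SD and 0 changed sign. The exception was C1ql3, with 0.88 under array symbols, since the clone probe then drops out. C1ql2 has no value under array symbols. Several of the unmoved values could not have moved. The median of probes equals their mean for genes with 1 or 2 probes, and array symbols alter only genes with a clone symbol. The count of 33 therefore overstates how far the means were put to a test. Leaving out 1 array gave means from -0.435 to -0.36 for Cbln1, 1.27 to 1.895 for Cbln2, -1.625 to -1.31 for Cbln3, 1.93 to 2.075 for Cbln4, 1.275 to 1.545 for C1ql1, 1.83 to 1.935 for C1ql2 and 0.575 to 0.642 for C1ql3. Each array gives 1 ratio of cKO over wild type, so the test of the ratios against 0 is itself the paired analysis, and no fit without the pairing could be made from ratios. The number of arrays limits the precision, and signal over background is unknown.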
